A study of Homo sapiens with 2 samples.

Results

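The genes described here encode 7 families of the ubiquitin system: the UBE2 conjugating enzymes, the USP and OTUD deubiquitinases, the TRIM proteins and the FBXO, FBXL and FBXW substrate adaptors. They were chosen by symbol in the platform annotation, from symbols that start with UBE2, FBXO, FBXL, FBXW or OTUD or with USP or TRIM followed by a digit. Of 209 symbols that matched, 12 were left out as non-coding (7 pseudogenes and 5 antisense or divergent RNAs), which left 197 of the 14884 named genes. By family they were 23 UBE2, 48 USP, 8 OTUD, 61 TRIM, 33 FBXO, 15 FBXL and 9 FBXW genes. USP6NL fits the symbol rule but encodes a GTPase-activating protein and not a deubiquitinase, and TRIM6-TRIM34 is a read-through of neighbouring genes.

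Both groups are SNK6 cells, an established human NK/T-cell lymphoma line, grown in RPMI-1640 with 10% heat-inactivated serum and interleukin-2 at 500 U/ml. Each group is 1 array. One sample received romidepsin, which inhibits class I histone deacetylases, for 72 h, and the other received romidepsin with sildenafil, a phosphodiesterase inhibitor, for the same time. No dose is stated in the labels, and both arrays carry romidepsin, so no value describes cells without it. Without replicates no difference was tested, no value has a replicate error, and the number of arrays limits the precision. The values are log2 signals and every difference is the signal with sildenafil minus the signal without.

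Ubiquitin is activated by an E1 enzyme, passed to an E2 conjugating enzyme and placed on a substrate with the help of an E3 ligase, and deubiquitinases take it off again. The chain type decides the outcome, which can be destruction by the proteasome, a change of location or a signal. F-box proteins bring substrates to a ligase built on CUL1 and SKP1. Most but not all TRIM proteins are RING-type ligases in their own right, many of them in antiviral defence. In lymphoid cells the system controls the cell cycle, DNA repair, NF-kappaB signalling and the interferon response.

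Most of these genes gave signal on the arrays. A gene was taken as measured when at least 1 array reached 3.91, the middle value of the whole table, and 161 of the 197 members (81.7%) did so against 67.7% of all named genes. All named genes include antisense RNAs and pseudogenes, which the members leave out, so these shares compare unlike classes of gene. The same holds for the later shares over all measured genes. The share among protein-coding genes alone was not computed. The share was 95.7% of UBE2, 87.5% of OTUD, 85.4% of USP, 80.0% of FBXL, 78.8% of FBXO, 77.8% of FBXW and 75.4% of TRIM genes. Among those that missed it were USP26, known from testis, and TRIM55 and FBXO40, known from muscle. Other genes of such tissues passed. Of the 3 named TRIM genes listed for muscle 2 passed, and of the 5 listed for brain 3 passed. The 2 F-box genes listed for muscle atrophy passed as well. The filter level fell between TRIM10 (3.90 on its brighter array), just outside, and TRIM45 (3.97), just inside. Only FBXW10B and TRIM54 passed on 1 array alone. Median signals of the measured members were 6.42 and 6.45 (without and with sildenafil) for UBE2, 6.81 and 6.66 for USP, 5.85 and 6.02 for OTUD, and 5.81 and 5.98 for TRIM. They were 6.19 and 6.08 for FBXO, 5.63 and 5.72 for FBXL and 6.51 and 6.45 for FBXW, beside 5.78 and 5.75 over all measured genes. Signals of different genes come from different probes and give no order of RNA abundance.

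Few members differed between the arrays. At least 1.5-fold apart (a log2 difference of 0.58) were 5 of 161 members (3.11%), against 1.99% of the 10081 measured genes. Higher with sildenafil were FBXW10B and TRIM67 (background 1.02%), and lower were USP20, FBXO3 and UBE2Q2 (background 0.972%). At 2-fold only FBXW10B was left, beside 0.0893% of all measured genes higher and 0.0893% lower. With so few genes the share is near the background. Within 0.1 of each other lay 87 members (54.0%), against 43.1% of all measured genes. The members were brighter, with median signals of 6.19 and 6.18 (without and with sildenafil) against 5.78 and 5.75. Bright genes scattered less than dim ones, and whether this gap holds at equal signal was not tested. The median difference of the members was -0.02 and that of all genes -0.01, and 71 members were higher and 89 lower.

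**Figure D1:**
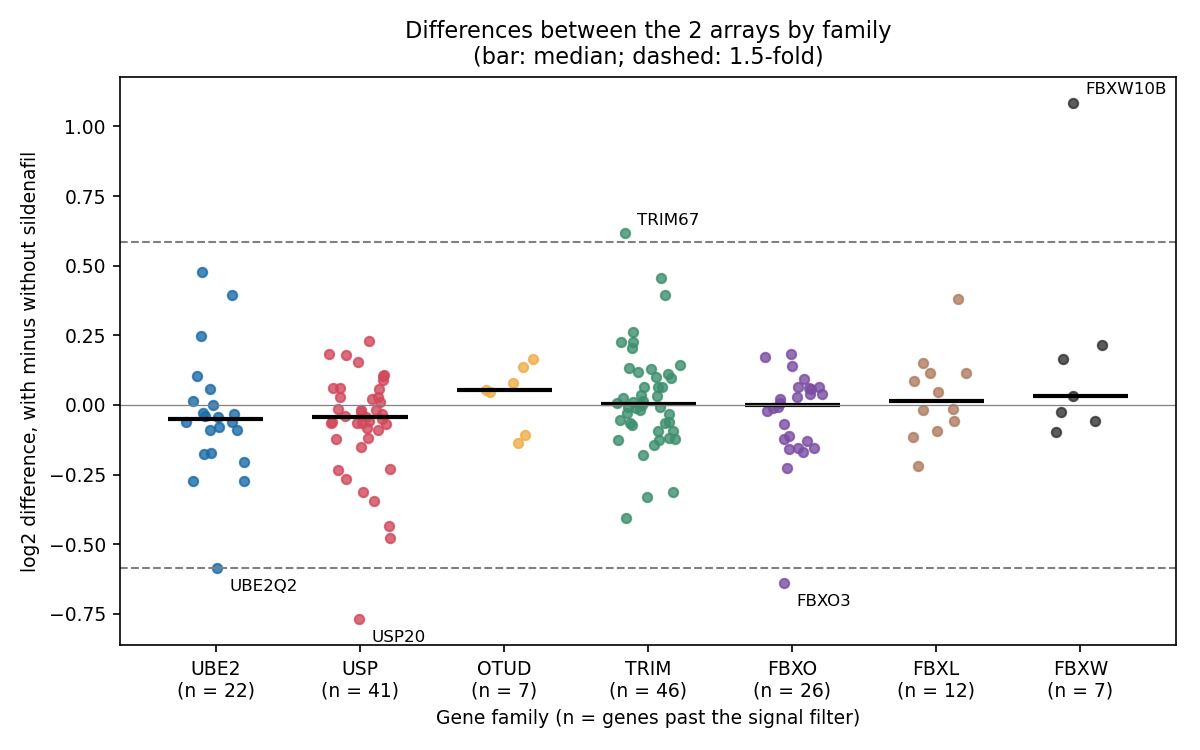
Log2 difference of each measured member by family, as points with the family median as a bar and the 1.5-fold limits as dashed lines; each group is 1 array. FBXW10B (1.08) and TRIM67 (0.62) lie above the limits and USP20 (-0.77), FBXO3 (-0.64) and UBE2Q2 (-0.59) below, while all 7 medians lie between -0.05 and 0.05.

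The family medians differed little from each other. They were -0.05 for UBE2, -0.04 for USP, 0.05 for OTUD, 0.00 for TRIM, 0.00 for FBXO, 0.02 for FBXL and 0.03 for FBXW. Among UBE2 genes 16 of 22 were lower with sildenafil, and among USP genes 27 of 41, while all measured genes had 47.2% higher. Those counts followed the scaling of the arrays, with 12 of 22 and 22 of 41 lower after quantile normalization. Under that scaling 4474 of 10073 measured genes were lower. The medians of both families stayed below 0 under every scaling tried (-0.01 and -0.00 after quantile normalization, -0.03 and -0.02 after lowess centring, -0.08 and -0.07 after median centring). The signs of TRIM and FBXL turned under median centring (-0.03 and -0.01), and that of all members together turned under quantile normalization (0.03) and lowess centring (0.01). FBXO was at -0.03 after median centring, 0.05 after quantile normalization and 0.03 after lowess centring. The median of all measured genes moved too, to -0.04 after median centring, 0.02 after quantile normalization and 0.00 after lowess centring. Less that median, TRIM stayed between 0.01 and 0.02, UBE2 between -0.04 and -0.03 and USP between -0.03 and -0.02. OTUD, with only 7 genes, stayed between 0.06 and 0.09, FBXO and FBXL between 0.01 and 0.03 and FBXW between 0.01 and 0.04. The middle 50% of differences ran from -0.15 to 0.01 in UBE2, from -0.12 to 0.03 in USP and from -0.07 to 0.11 in TRIM.

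A fixed fold weighs dim and bright genes differently, so each member was also set against the SD of the differences in its own decile of signal. That SD fell from 0.34 in the dimmest decile to 0.12 in the brightest. At least 2 such SDs apart were 11 of 161 members (6.83%), beside 5.4% of all measured genes. They were FBXW10B, TRIM67, UBE2S, TRIM74 and TRIM65, higher with sildenafil, and USP20, FBXO3, UBE2Q2, USP12, TRIM43B and TRIM49B, lower.

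**Figure D2:**
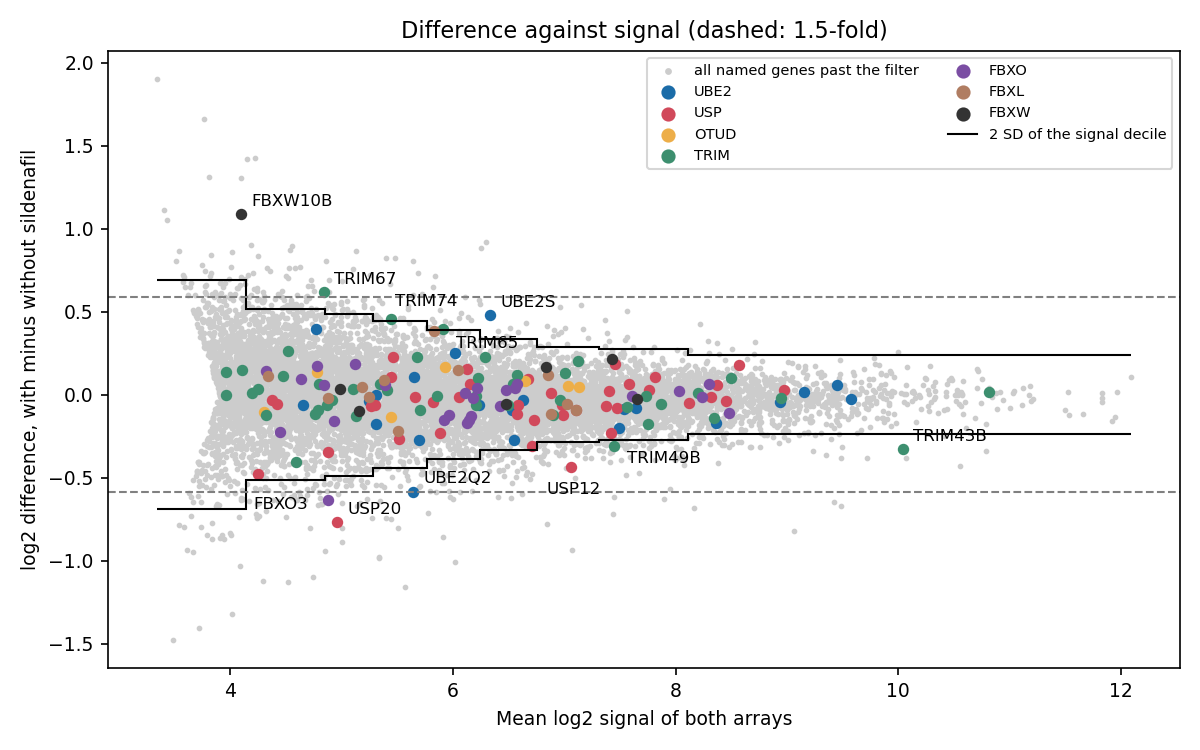
Mean log2 signal of both arrays (x axis) against the log2 difference (y axis) for all 10081 measured genes in grey and the 161 members in colour by family; steps mark 2 SDs of each decile of signal and dashed lines 1.5-fold. The 11 labelled members lie outside the steps, and TRIM43B and USP12 do so at differences of only -0.33 and -0.43.

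Among the E2 conjugating enzymes, UBE2Q2 stood lowest and UBE2S highest. UBE2Q2, a little-studied member with a long N-terminal extension, had signals of 5.93 without and 5.35 with sildenafil, which puts it at the 1.5-fold limit itself (-0.59). It fell inside that limit after quantile normalization (-0.55) and lowess centring (-0.57). UBE2S, which lengthens the chains that the anaphase-promoting complex builds in mitosis, had 6.09 without and 6.57 with sildenafil (0.48, 1.39-fold). UBE2QL1 was at 4.58 and 4.97 (0.40). The other E2 of the anaphase-promoting complex, UBE2C, was not analysed here.

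UBE2N, the E2 that builds signalling chains together with a UBE2V partner, had 5.90 without and 6.15 with sildenafil (0.25). Its partners UBE2V1 and UBE2V2 were both at -0.04. UBE2G2, an enzyme of degradation at the endoplasmic reticulum, had 6.69 and 6.41 (-0.27), while UBE2G1 was at 0.01. UBE2E2 was at -0.27, UBE2E3 at -0.18 and UBE2E1 at -0.06. None of these 3 related enzymes reached 1.5-fold.

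The 3 E2s of DNA repair had a median of -0.03, which turned to 0.03 after quantile normalization. UBE2A, a RAD6 homologue that marks the replication clamp, had 7.60 and 7.39 (-0.20), and its close relative UBE2B had 5.31 on both arrays (-0.00). UBE2T, the E2 of the Fanconi anaemia pathway, was bright at 9.59 and 9.56 (-0.03). UBE2K, which builds degradation chains on its own, was also bright at 9.42 and 9.48 (0.06). UBE2L6, which conjugates the interferon-induced modifier ISG15, was at 6.64 and 6.61 (-0.03).

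Among the deubiquitinases, the USP genes that differed by over 0.32 (log2) were all lower with sildenafil, 4 of 41 and none higher, beside 6.04% lower and 6.69% higher over all measured genes. USP20, which stabilises signalling proteins and receptors and binds the VHL ligase, had 5.35 without and 4.58 with sildenafil (-0.77, 1.71-fold). USP40 had 4.49 and 4.01 (-0.48). USP12, which is switched on by WD-repeat partners, had 7.28 and 6.85 (-0.43, 1.35-fold), 3.01 SDs of its signal range. USP35 had 5.05 and 4.71 (-0.34). The highest USP genes were USP53 (5.35 and 5.58, 0.23), USP38 (0.18) and USP1 (8.48 and 8.65, 0.18), the enzyme that releases ubiquitin from FANCD2 and the replication clamp.

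The 4 deubiquitinases listed for control of mitophagy, the removal of damaged mitochondria, were all lower in the deposited values, with a median of -0.16 (-0.12 after quantile normalization). Lower too were 27 of 41 USP genes and 5282 of 10081 measured genes, so the direction is not particular to this short list. USP30, anchored in the outer mitochondrial membrane, had 5.65 and 5.39 (-0.27), and USP35 is given above. USP8 was at -0.06 and USP15 at -0.05. None was beyond 1.5-fold. Of the enzymes that keep free ubiquitin in supply, USP13 had 6.87 and 6.55 (-0.31), while USP5, which takes apart unanchored chains, was at 0.06 and the proteasome-bound USP14 at 0.03 (8.96 and 8.99).

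The measured deubiquitinases of the p53 axis lay within 0.1 of equal by their brightest probe sets, and those of chromatin ran from -0.12 to 0.11. USP7, which stabilises MDM2 and p53, had 8.34 and 8.40 (0.06), USP4 was at -0.09 and USP2 at -0.07. A second USP2 probe set gave 0.18, so the sign of USP2 depends on the probe set. USP22, of the SAGA complex, was at 0.03, USP21 at 0.11 and USP16, which acts on histone H2A, at -0.12. Of the 5 measured enzymes of DNA repair 4 were lower, from -0.08 (USP48) to -0.02 (USP3 and USP44), beside 5282 of 10081 measured genes. USP18, which strips ISG15 and dampens interferon signalling, had 6.05 and 6.21 (0.15).

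The 7 measured OTUD genes ran from -0.14 to 0.17, and none differed by over 0.32. Their median size of difference was 0.11, against 0.07 for USP and 0.12 for all measured genes. Within 0.1 lay 42.9% of them, near the 43.1% of all measured genes. OTUD7B, an inhibitor of NF-kappaB signalling also called Cezanne, had 5.85 and 6.02 (0.17), and OTUD1 had 4.71 and 4.85 (0.14). OTUD3 was at 5.51 and 5.37 (-0.14) and OTUD7A at 4.35 and 4.25 (-0.11). OTUD5, a brake on interferon induction, was at 7.11 and 7.16 (0.04), OTUD6B at 0.05 and OTUD4 at 0.08.

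Of the TRIM genes, TRIM67 alone was 1.5-fold apart. TRIM67, a gene of the nervous system, had 4.53 without and 5.15 with sildenafil (0.62, 1.53-fold). TRIM74 had 5.21 and 5.67 (0.46) and TRIM65, a ligase for the RNA sensor MDA5, had 5.72 and 6.11 (0.40). The lowest were TRIM61 (4.79 and 4.38, -0.41), TRIM43B (10.20 and 9.87, -0.33) and TRIM49B (7.60 and 7.29, -0.31). TRIM43, the near-identical neighbour of TRIM43B, was also bright but nearly equal on the arrays (10.80 and 10.82, 0.02). TRIM43, TRIM43B, TRIM49B and TRIM74 belong to multicopy loci, so their signals may include those of their relatives.

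The 9 measured antiviral TRIM genes had a median of -0.05, with 7 lower and 2 higher, beside 5282 of 10081 measured genes lower. The median stayed below 0 after median centring (-0.08) and lowess centring (-0.02) but was 0.00 after quantile normalization. Over all measured genes those medians were -0.04, 0.00 and 0.02. TRIM25, the ligase for the RNA sensor RIG-I, had 7.90 and 7.85 (-0.05), and TRIM21, a cytosolic antibody receptor, had 5.75 and 5.66 (-0.09). TRIM5 and TRIM22, neighbouring genes that restrict retroviruses, were at -0.12 and -0.07. TRIM14 was at -0.06, TRIM56 at -0.03 and TRIM38 at -0.02 (8.96 and 8.94), and TRIM26 was higher at 0.13. Apart from TRIM65, each of these differences was at or below 0.13 in size.

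TRIM genes that act on chromatin had a median of -0.08. TRIM24, a transcriptional cofactor, had 7.85 and 7.67 (-0.18) and its paralogue TRIM33 had 8.42 and 8.27 (-0.14). TRIM28, the corepressor of KRAB zinc finger proteins, went the other way with 8.45 and 8.55 (0.10), and TRIM66 was at -0.01. The neighbours TRIM11 and TRIM17 were at 0.23 and 0.26. Several TRIM genes of the MHC region had between 5 and 8 probe sets. Those of TRIM27 ran from -0.13 to 0.10 and those of TRIM40 from -0.34 to 0.03, so neither gene has a settled sign.

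Among the F-box genes, FBXW10B and FBXO3 were apart and most others close to equal. FBXW10B had 3.56 without and 4.64 with sildenafil (1.08, 2.12-fold). It passed the filter only through its brighter array, so it had to differ to be counted, and the size rests on a dim signal. FBXO3, a ligase subunit that acts in inflammatory signalling, had 5.20 and 4.56 (-0.64, 1.56-fold). FBXL8 was the highest of its family at 5.64 and 6.02 (0.38), and FBXL17, which removes wrongly paired BTB proteins, the lowest at 5.62 and 5.40 (-0.22).

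The F-box genes of the cell cycle had a median of -0.03, with 2 higher and 2 lower, which turned to 0.02 after quantile normalization. FBXO5, the inhibitor EMI1 of the anaphase-promoting complex, had 6.11 on both arrays (0.01), and FBXO43, its meiotic relative EMI2, had 4.56 and 4.33 (-0.23). FBXW11, which like BTRC directs beta-catenin and the NF-kappaB inhibitor to destruction, had 6.76 and 6.92 (0.17). FBXW8, a partner of CUL7, had 7.32 and 7.54 (0.22), and FBXW2 had 7.67 and 7.64 (-0.03). FBXO11, the ligase subunit for the lymphoma oncoprotein BCL6, was at 8.27 and 8.33 (0.06) and FBXO28 at 8.53 and 8.42 (-0.11).

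The 3 measured F-box genes that recognise sugar chains were all slightly higher in the deposited values, FBXO2 at 0.14, FBXO44 at 0.09 and FBXO27 at 0.06. Over all measured genes 47.2% were higher. FBXO2, FBXO44 and FBXO6 lie next to each other in the genome, and FBXO6 missed the filter. The iron sensor FBXL5 (6.94 and 6.82, -0.12), the mitochondrial FBXL4 (-0.06) and FBXO7 (8.24 and 8.23, -0.01), a gene of inherited parkinsonism, differed little. FBXO32, the muscle atrophy ligase atrogin, had 4.70 and 4.87 (0.17). FBXL18 was at -0.02 by its brighter probe set and at 0.42 by the other, the widest disagreement among the 8 members with more than 1 probe set.

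**Figure D3:**
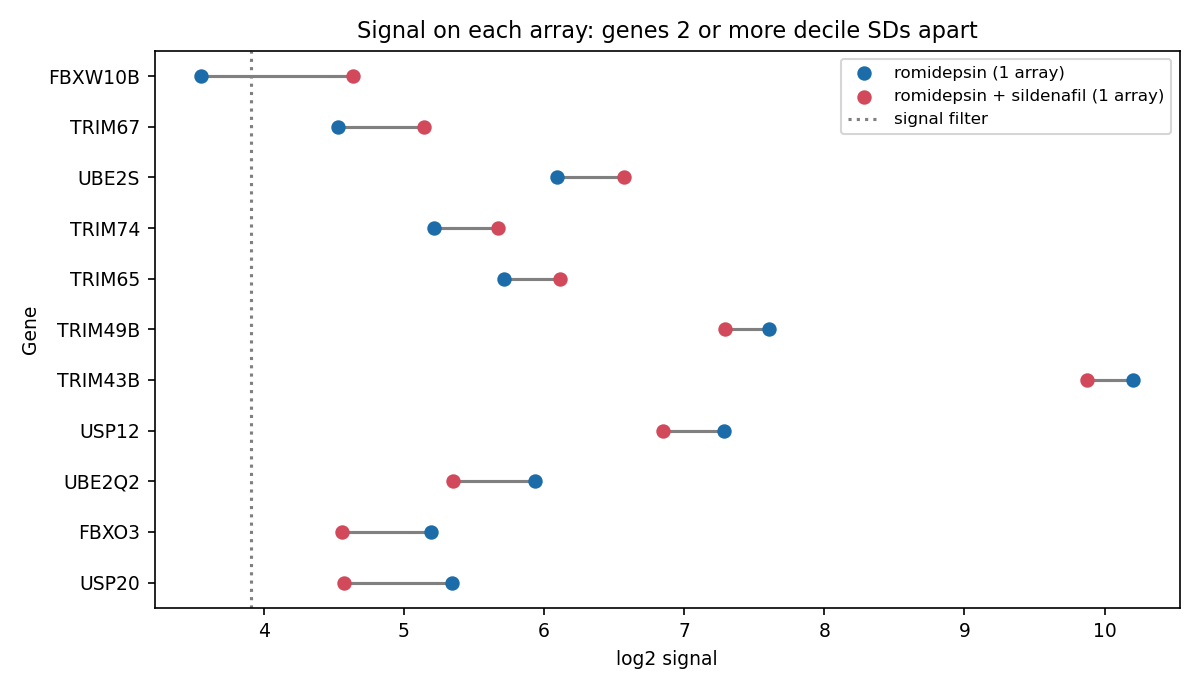
Log2 signal on the romidepsin array and on the combination array (1 array each) for the 11 members at least 2 SDs of their signal decile apart, with the signal filter dotted. FBXW10B crosses the filter from 3.56 to 4.64, while TRIM43B (10.20 and 9.87) is the brightest of the set.

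Paralogues were compared in 25 pairs chosen from knowledge of the families after the values were seen, of which 19 had both genes measured. In 9 of the 19 the differences lay within 0.2 of each other, and the median gap was 0.20. Gaps between unrelated genes were not computed, so these values do not show whether paralogues lay closer together than other genes. The widest gap was between USP20 (-0.77) and USP33 (-0.15), which share substrates. UBE2Q2 (-0.59) and UBE2Q1 (-0.08) followed, then USP12 (-0.43) and USP46 (0.06), which share their activating partners. USP13 (-0.31) and USP5 (0.06) were also apart. UBE2V1 and UBE2V2, FBXO34 and FBXO46, TRIM24 and TRIM33, and USP4 and USP15 were nearly equal within each pair, with gaps of 0.00, 0.00, 0.04 and 0.04. TRIM9, the paralogue of TRIM67, missed the filter at 3.59 on both arrays.

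**Figure D4:**
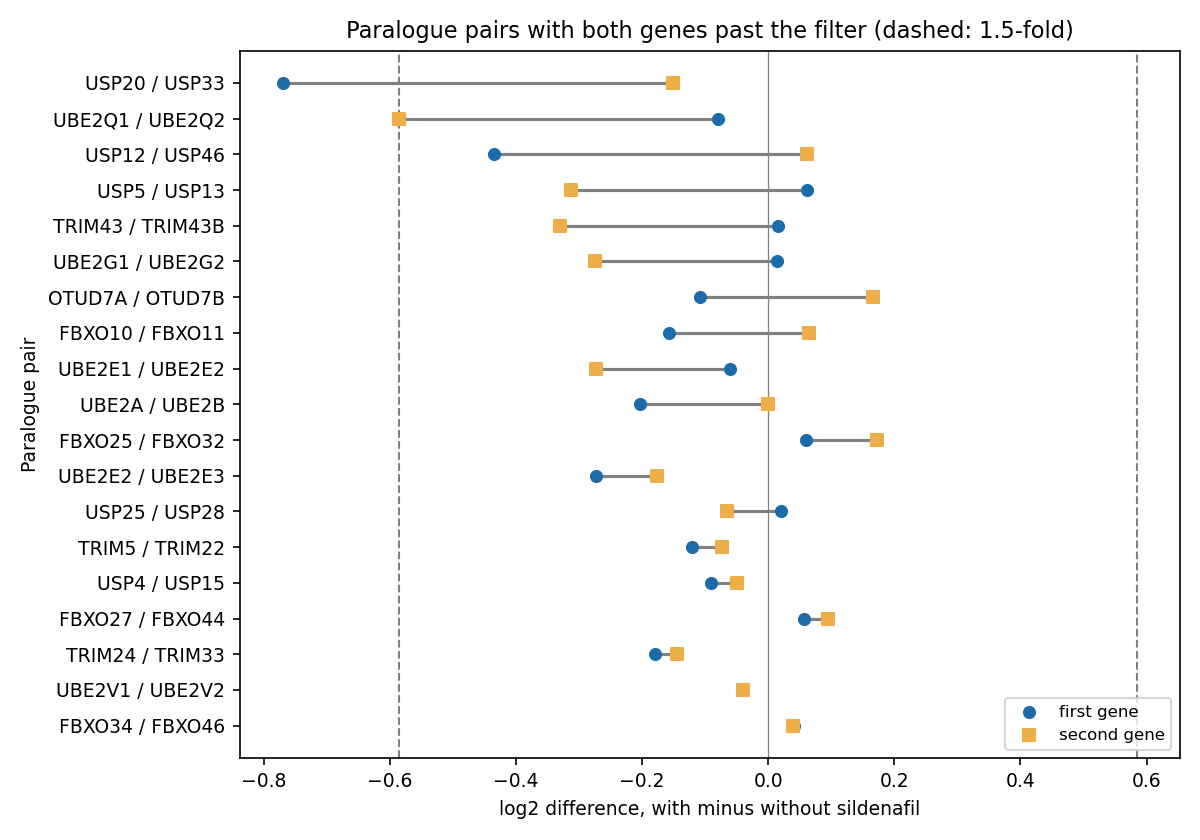
Log2 difference of both genes of each of the 19 measured paralogue pairs, circle for the first and square for the second gene of the label, joined by a line, with 1.5-fold dashed. The USP20 and USP33 pair spans -0.77 to -0.15 and the UBE2V1 and UBE2V2 pair lies together at -0.04.

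RefSeq promoter records (GRCh38.p14) were matched for 150 members, and the 250 bases before each start were searched on both strands. The 120 bases before the start of FBXW10B (chr17:15619705-15619824, minus strand) and of FBXW10 (chr17:18743934-18744053, plus strand) are shown because these copies differed in signal, FBXW10 being at 2.14 and 2.28 and below the filter.
FBXW10B: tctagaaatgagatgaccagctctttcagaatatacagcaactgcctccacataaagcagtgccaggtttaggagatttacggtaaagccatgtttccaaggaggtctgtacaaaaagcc
FBXW10: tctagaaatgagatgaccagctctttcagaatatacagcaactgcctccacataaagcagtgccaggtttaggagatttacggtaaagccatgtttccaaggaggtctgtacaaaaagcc
Over all 250 bases the copies shared 248 (99.2%). The multicopy pair TRIM64 and TRIM64B was as alike (99.6%), while TRIM49 and TRIM49B shared 47.6%, as did the paralogues USP20 and USP33, and TRIM9 and TRIM67 shared 40.4%. Which of the FBXW10 copies the probes report was not tested.

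The other called members with a record are TRIM67 (chr1:231161938-231162057, plus strand), USP20 (chr9:129835338-129835457, plus strand) and UBE2Q2, shown at the first of its starts (chr15:75843327-75843446, plus strand). Capitals mark the GC box GGGCGG on either strand, the binding sequence of SP1-type factors.
TRIM67: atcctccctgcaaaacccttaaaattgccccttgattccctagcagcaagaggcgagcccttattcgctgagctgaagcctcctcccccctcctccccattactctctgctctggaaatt
USP20: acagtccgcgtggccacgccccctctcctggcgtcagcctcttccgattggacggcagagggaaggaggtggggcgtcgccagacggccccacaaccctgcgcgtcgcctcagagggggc
UBE2Q2: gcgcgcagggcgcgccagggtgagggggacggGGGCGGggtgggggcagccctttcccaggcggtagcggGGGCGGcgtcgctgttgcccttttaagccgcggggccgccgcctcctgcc
Within these 120 bases UBE2Q2 held 2 GC boxes and the other shown members held 0, but TRIM67 and USP20 also held the letters within the 250 bases searched, as did 72.0% of the 150 members and 62.1% of 15843 protein-coding genes.

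The palindrome TGACGTCA, which CREB and related factors bind downstream of cyclic nucleotide signalling, was searched because sildenafil slows the breakdown of cyclic GMP. It was found in 3 of 150 members (2%), beside 2.73% of all genes. The windows are UBE2S (chr19:55407843-55407902, minus strand), FBXL20 (chr17:39402643-39402702, minus strand) and the first FBXO34 start (chr14:55271323-55271382, plus strand), with the palindrome in capitals.
UBE2S: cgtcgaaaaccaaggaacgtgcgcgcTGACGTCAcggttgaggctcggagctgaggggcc
FBXL20: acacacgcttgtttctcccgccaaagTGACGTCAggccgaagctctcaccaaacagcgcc
FBXO34: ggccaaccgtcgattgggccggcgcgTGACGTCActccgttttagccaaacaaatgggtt
These members did not move alike, with UBE2S at 0.48, FBXL20 at 7.15 and 7.06 (-0.09) and FBXO34 at 6.19 and 6.23 (0.04).

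The interferon response letters, GAAA followed by any 2 bases and GAAA again, were found in 8 of 150 members (5.33%), all of them TRIM genes, beside 3.60% of all genes. TRIM5 (chr11:5685075-5685134), TRIM14 (chr9:98119223-98119282) and TRIM26 (chr6:30213566-30213625), all on the minus strand, are shown because they belong to the antiviral list, with the letters in capitals as read on the opposite strand. The capitals of TRIM26 hold 2 overlapping matches.
TRIM5: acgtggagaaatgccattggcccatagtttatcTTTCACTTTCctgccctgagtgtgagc
TRIM14: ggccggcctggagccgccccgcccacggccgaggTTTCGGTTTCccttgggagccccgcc
TRIM26: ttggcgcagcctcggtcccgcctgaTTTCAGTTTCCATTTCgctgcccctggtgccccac
Their differences, given above, lay between -0.12 and 0.13. The ETS letters CCGGAAGT were found in 16 members (10.7%) beside 5.82% of all genes, among them UBE2N, USP16, USP19, USP30 and FBXO28. The letters TTTGAA, the cell cycle genes homology region, were found in 12 (8%) beside 14.2%, among them USP1, UBE2T and FBXO5, whose differences were 0.18, -0.03 and 0.01.

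The rest of the ubiquitin system was taken as 112 listed genes with other names. Their median size of difference between the arrays was 0.07, against 0.09 for the members. Dim genes scattered more than bright ones, and these genes were not matched to the members for signal. Whether this gap, or that in the shares past 0.32 below, holds at equal signal was not tested. Of the 78 measured genes with other names 35 were higher and 43 lower, with a median of -0.02 and none beyond 1.5-fold. Past 0.32 on the log2 scale 2 were apart (2.56%), both lower, beside 12.7% of all measured genes in either direction and 9.32% of the members. These were HECTD3 (5.76 and 5.35, -0.42), a HECT-type ligase, and UCHL3 (8.17 and 7.80, -0.37), a deubiquitinase of the UCH type. The E1 enzymes lay between -0.11 (UBA6) and 0.08 (SAE1). The F-box adaptor SKP1 had 4.79 and 4.48 (-0.32) while its scaffold CUL1 was at 8.87 on both arrays (-0.00), and CUL7, the scaffold of FBXW8, was at 0.24. The 13 subunits and activators of the anaphase-promoting complex ran from -0.18 (FZR1) to 0.10 (ANAPC4), below the 0.48 of UBE2S. The ubiquitin gene UBB was at -0.13, BTRC at -0.19, the E2-like AKTIP at -0.31, YOD1 at 0.28 and WWP2 at -0.21.

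Markers of natural killer cells were measured, and so were some of other types. Of 17 natural killer markers 11 were named and 10 measured. PRF1, NKG7, CD2 and NCAM1 (6.63 and 6.54) had the highest signals of them. NCR3 (4.70 and 4.69) was dim, GNLY (3.82 and 3.92) passed only on the combination array and EOMES (3.21 and 2.90) missed the filter. In signal, CD22 (7.46 and 7.37), CD247 (7.11 and 7.17), KRT18 (7.04 and 7.38) and CD68 (6.72 and 6.61), from the lists of other types, lay above NCAM1. The measured natural killer markers had a median difference of -0.00, with differences from -0.27 (NKG7) to 0.47 (TBX21). Summed log2 signals were 64.6 and 64.9 over the named natural killer genes. Of other types, 6 of 7 named T cell, 3 of 3 B cell, 4 of 8 myeloid and 3 of 4 fibroblast and epithelial markers were measured. Their summed signals were 30.7 and 30.7, 17.9 and 17.6, 31.3 and 31.5, and 19.4 and 19.6. The sums include genes under the filter and hide differences in both directions: the measured T cell markers ran from -0.25 to 0.24, the B cell markers from -0.18 to -0.04 and the myeloid markers from -0.42 to 0.27. The 3 measured epithelial genes had a median of -0.26, with KRT8 lowest (-0.30) and KRT18 highest (0.34). The part of other cell types in the differences above was not tested.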

How the data were processed

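Biotin-labelled cDNA from total RNA was hybridised to whole-transcript arrays, per the labels' protocols. The deposited table holds log2 signals of 53617 probe sets on 2 arrays. The log base was read from the range of values, and the labels do not name the authors' summarisation or normalization. Sorted columns differed by at most 0.15, so a change shared by most transcripts would not show. The combination sample was read as sildenafil because its title adds a second short drug name and the protocol names no other.

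GEO's platform annotation gave 16098 probe sets 1 gene symbol. All 209 matched symbols were found in RefSeq, which gave the gene class. The probe set with the highest mean stood for its gene. Counting was tested on simulated data. No coordinates accompany the arrays.

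The members, lists, thresholds and motifs were chosen with earlier results of these data known. Named genes were all members beyond 1.5-fold, the 3 highest, 3 lowest and 2 brightest of each family, members of role lists, members with discordant probe sets, and at most 2 genes of each other list with the largest differences. USP33, USP46, FBXO34 and the other paralogues and promoter examples outside that rule, and the members 2 SDs apart, were chosen after their values were seen. Python 3.11.15, numpy 2.4.6, pandas 2.3.3 and statsmodels 0.14.6 were used.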

Additional observations from a re-analysis of the deposited data

How the results depend on the processing

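Beyond 1.5-fold, 2 members were higher and 3 lower. The higher count was 1 with the filter at a signal of 5, where FBXW10B dropped out, and 1 without the multicopy members, an alternative chosen after seeing the data. A limit of 2-fold left 1 higher and 0 lower, and a limit of 0.32 on the log2 scale gave 7 and 8. UBE2Q2 left the 1.5-fold range after quantile normalization and lowess centring, and FBXO3, FBXW10B, TRIM67 and USP20 kept to it under those and under median centring. The mean in place of the median gave 0.19 for FBXW, which rests on FBXW10B among 7 genes. With probe sets averaged, the p53 deubiquitinases had a median of 0.058 instead of -0.07, since USP2 has discordant probe sets. With no filter, the TRIM genes of the brain had a median of 0.00 instead of 0.11, since dim genes entered. The other 242 counts and medians computed under alternatives, and all 250 values of single genes, stayed within 1.5 times or 0.1 of the reported value, though medians this close to 0 can change sign. A tolerance of 0.1 is wide beside such medians, so the count is no measure of stability. Many of these values could not change at all. Leaving out USP6NL could alter only USP and the members together, and no UBE2 or OTUD gene has more than 1 probe set. For the single genes, too, much of this was fixed in advance. Each has 1 probe set, so averaging probe sets or keeping single ones could not change it. Median centring moved every gene alike, so only quantile normalization and lowess centring could alter genes differently. The alternative without near-identical proteins was not run, because no protein table was used here. No paired analysis was possible because each group holds 1 array. Low signal limits the dim members most.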

Other observations

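TRIM43, TRIM43B and their relatives are known from cleavage-stage embryos, where the factor DUX4 switches on a set of genes. Both genes were bright here (10.80 and 10.82 for TRIM43, 10.20 and 9.87 for TRIM43B), while TRIM49, TRIM48 and TRIM64 of the related multicopy loci missed the filter and TRIM49B and TRIM64B passed it. A list of 10 other cleavage-stage genes was drawn up after these values were seen, and all 10 were named on the array. Their signals ran from 1.99 to 4.49 and 2 of them passed the filter, LEUTX (4.26 and 4.49) and MBD3L3 (4.24 and 4.25), while ZSCAN4 was at 2.74 and 2.93. What the TRIM43 and TRIM43B probes report in these cells was not tested.

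The deubiquitinase USP1 and its relatives USP12 and USP46 share the activating partner WDR48. They were at 0.18, -0.43 and 0.06.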
